A study of Mus musculus with 8 samples.

Results

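The 242 most abundant genes of the antisense class were compared between spleen neutrophils of WT and Cxcr2-/- mice, each beside the protein-coding gene it overlaps. They were all genes that GENCODE M21 puts in the biotype antisense and whose counts, scaled to counts per 1e6 counts on genes (CPM), averaged at least 3 over 8 libraries, under a rule that also leaves out Gas5 and the Snhg genes and here removed none. The 242 genes were 8.18% of the 2958 antisense-class genes counted, among 55414 genes in all. The values that chose them were their mean CPM over both groups, which are given below as a description.

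The WT and Cxcr2-/- mice were FVB animals aged 10 weeks, housed as SOPF, and the knockout was backcrossed to FVB in a mouse that lacks Cxcr2 in every cell, not in neutrophils alone. Cxcr2 is the receptor for ELR+ CXC chemokines that draws neutrophils out of the marrow. Spleen cells were enriched by CD11b positive selection and sorted as CD45+ CD11b+ Ly6G+ F4/80- cells, and 1 ribosomal RNA-depleted library was made per mouse, with 4 libraries in each group. Cxcr2 itself was counted at 2252, 1719, 1940 and 1913 normalised CPM in WT and at 20.7, 19.0, 15.6 and 12.9 in Cxcr2-/- libraries (log2 fold change -6.84, SE 0.19, edgeR quasi-likelihood test, adjusted p = 3.5e-10), so every library matched its genotype label.

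A natural antisense gene is transcribed from the strand opposite to another gene. Such a pair may start from a shared stretch of promoter and run apart (head to head), may meet at the 3′ ends (tail to tail), or the antisense gene may lie wholly inside its partner, often in an intron. Antisense RNAs are known to act on the chromatin, splicing or stability of their partner in some loci, while many are short-lived by-products of open promoters, cleared in the nucleus by the RNA exosome. For most of the genes below no function is known, so the role given is that of the sense partner.

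The counts went against reading these genes as antisense RNA. The library kit kept the strand of each RNA, but the deposited counts did not. In the M21 models, 227 genes of at least 300 exonic bases lay with all of these bases under exons of the opposite strand. Of these, 224 had no count in any of the 8 libraries, and 0 reached 1 CPM. The highest mean was 0.243 CPM and the 227 genes held 114 counts in total. Among them were 31 protein-coding genes, 29 of which had no count. Pdcd2 (chr17:15519208-15527301, minus strand, GRCm38), a gene with 2582 exonic bases that all lie under exons of Tbp, had 0 counts in 8 libraries, beside a mean of 24.7 CPM for Tbp, the TATA-binding protein. All 69 antisense-class genes of this kind were at 0. Reads that fall where 2 genes overlap were thus set aside, and elsewhere the reads of both strands were added. The RNA of a gene and of its partner cannot be told apart in these counts: a value below is the number of pairs of either strand on the exonic bases of an antisense-class gene that no opposite exon covers. Of the 242 genes, 86 had no base under opposite exons, the median was 7.71% and the highest 72.4%.

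**Figure D1:**
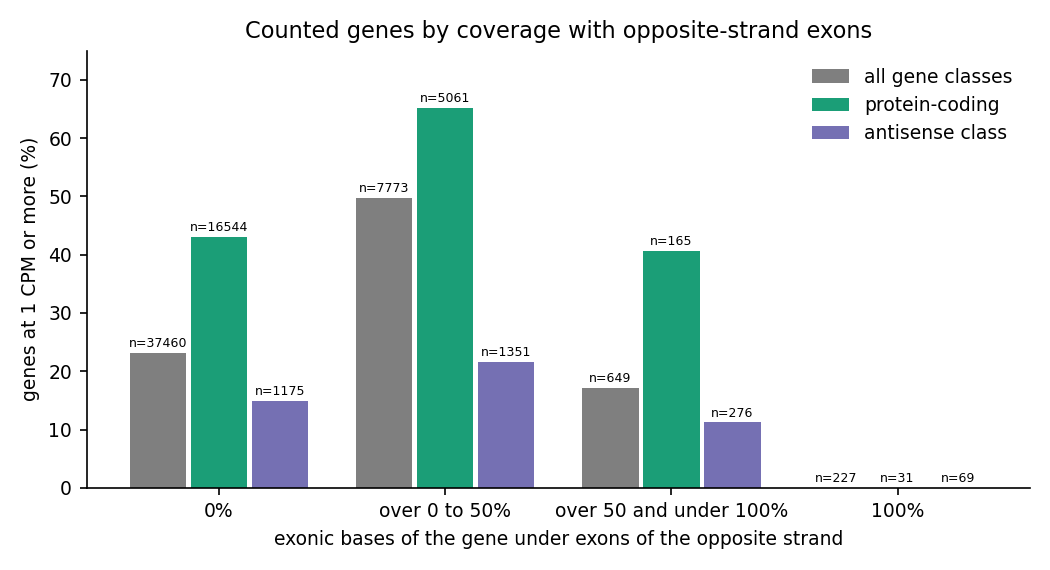
Share of genes with a mean of 1 CPM or more (vertical axis, percent) in 4 bins of the share of exonic bases that lie under exons of the opposite strand (horizontal axis), for all gene classes, protein-coding genes and antisense-class genes of at least 300 exonic bases, with the number of genes over each bar. In the bin at 100%, none of 227 genes reached 1 CPM, whereas 17.1% did where the share was over 50 and under 100%.

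Annotation set a second limit. The gene identifiers carried version numbers above those of M21 for 52096 of 55414 genes, and 3281 genes had no M21 entry, so the reads were counted on later gene models, and the exon borders given here may differ from those counted. All coordinates are those of M21 on GRCm38.

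Of the 242 genes, 144 lay inside their partner, 49 stood head to head, 34 tail to tail and 10 spanned the partner, and 5 overlapped no gene of the other strand. The 237 with a partner had 222 different ones, since 12 partners held 27 of the genes between them. Their exonic length ran from 300 to 93092 bases, with a median of 1698, and 28 had a single exon block. Read per count, the median gene had 5.15% of its partner's counts, 20 had under 1% and 24 had more than the partner. Per kilobase free of opposite exons, the median was 24.0% of the partner's level, and 29 of 230 pairs had the antisense-class gene above its partner.

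F630028O10Rik (ENSMUSG00000078122, chrX:96239926-96243636, plus strand) was the most abundant of the 242 and 1 of the 5 without a partner. It holds the hairpin of Mir223 (chrX:96242817-96242926, plus strand), the microRNA known as a brake on granulocyte activation. Of the 242 genes, 2 hold a microRNA hairpin on their own strand, the other being Gm35853 with Mir1941. The mature forms from RefSeq (GRCm38.p6) are shown because they are the product this locus is known for, with the seed, bases 2 to 8, in capitals.

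miR-223-5p: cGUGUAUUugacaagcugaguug
miR-223-3p: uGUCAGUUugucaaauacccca

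Libraries of this kind do not measure mature microRNAs, and Mir223 as a gene of its own had 0 counts in all 8 libraries. Reads that fall where exons of 2 genes overlap were set aside, and its hairpin lies inside F630028O10Rik, so this 0 is no measure of Mir223. F630028O10Rik was at 594, 724, 681 and 720 normalised CPM in WT and at 448, 591, 427 and 475 in Cxcr2-/- libraries. All 4 Cxcr2-/- values were lower than all 4 WT values, although WT 1 and Cxcr2-/- 2 nearly met. The difference (log2 fold change -0.49, SE 0.12, adjusted p = 0.00564, edgeR) passed the test and stayed under the 1.5-fold asked of a call. With the share of read pairs that fell outside all gene exons in each library as a covariate it was -0.26 (adjusted p = 0.377, edgeR).

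Promoters are shown for 3 pairs whose start sites lie close enough to share sequence and whose genes are described below. RefSeq windows of 300 bases (250 before and 50 after the start, GRCm38.p6) were found by symbol for 96 of the 242 genes and 176 partners. Among 80 pairs with both windows, 6 had windows that overlap: 1 with both genes higher in Cxcr2-/-, 2 with both lower, 1 that moved in opposite directions and 2 with neither called. The longest overlap, 290 bases, was that of Gm671 and the keratin gene Krt7, named here after their values were seen, which fell by 0.76 and 1.03 on the log2 scale (adjusted p = 0.00396 and 5.32e-05, edgeR) and whose windows are not shown. The windows of Gm26748 (chr6:99726535-99726834, plus strand) and Prok2 (chr6:99726343-99726642, minus strand) share 108 bases, those of Junos (chr4:95052067-95052366, plus strand) and Jun (chr4:95052173-95052472, minus strand) 194, and those of Gm16894 (chr1:40085802-40086101, minus strand) and Il1r2 (chr1:40085843-40086142, plus strand) 259. The RefSeq starts of Gm26748, Junos and Il1r2 lie 1014, 783 and 12014 bases from the first base of the M21 gene, and the other 3 are the same. Capitals mark matches to any of 3 strings, searched on both strands: TGANTCA (AP-1), TGACGTCA (cyclic AMP response element) and TTNNGNAA (C/EBP), with no overlap between matches in these windows.

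Gm26748: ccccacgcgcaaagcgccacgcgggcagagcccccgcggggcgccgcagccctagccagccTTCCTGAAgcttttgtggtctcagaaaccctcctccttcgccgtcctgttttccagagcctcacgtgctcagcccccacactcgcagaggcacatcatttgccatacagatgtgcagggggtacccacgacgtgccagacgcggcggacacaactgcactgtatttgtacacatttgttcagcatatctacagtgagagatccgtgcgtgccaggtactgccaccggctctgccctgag
Prok2: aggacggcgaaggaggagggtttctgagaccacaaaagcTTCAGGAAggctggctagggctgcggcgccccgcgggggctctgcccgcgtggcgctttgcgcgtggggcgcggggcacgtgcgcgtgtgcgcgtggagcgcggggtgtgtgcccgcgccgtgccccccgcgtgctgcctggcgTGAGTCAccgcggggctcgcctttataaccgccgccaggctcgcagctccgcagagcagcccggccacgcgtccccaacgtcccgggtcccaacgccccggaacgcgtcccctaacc
Junos: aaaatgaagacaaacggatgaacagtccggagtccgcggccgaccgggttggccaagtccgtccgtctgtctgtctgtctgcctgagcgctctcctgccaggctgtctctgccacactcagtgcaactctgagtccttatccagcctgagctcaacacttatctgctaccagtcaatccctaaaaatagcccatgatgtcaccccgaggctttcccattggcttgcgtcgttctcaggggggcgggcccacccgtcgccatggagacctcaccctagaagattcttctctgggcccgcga
Jun: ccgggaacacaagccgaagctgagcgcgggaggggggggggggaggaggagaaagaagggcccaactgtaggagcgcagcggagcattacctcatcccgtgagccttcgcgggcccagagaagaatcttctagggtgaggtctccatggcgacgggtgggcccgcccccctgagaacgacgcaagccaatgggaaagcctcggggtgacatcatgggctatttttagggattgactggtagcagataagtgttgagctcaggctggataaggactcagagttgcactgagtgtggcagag
Gm16894: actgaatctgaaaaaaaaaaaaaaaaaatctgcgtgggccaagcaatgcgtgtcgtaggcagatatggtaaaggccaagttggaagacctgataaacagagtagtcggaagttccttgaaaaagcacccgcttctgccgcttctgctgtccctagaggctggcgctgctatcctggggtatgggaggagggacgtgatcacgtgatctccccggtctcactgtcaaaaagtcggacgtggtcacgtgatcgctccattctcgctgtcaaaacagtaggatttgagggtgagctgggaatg
Il1r2: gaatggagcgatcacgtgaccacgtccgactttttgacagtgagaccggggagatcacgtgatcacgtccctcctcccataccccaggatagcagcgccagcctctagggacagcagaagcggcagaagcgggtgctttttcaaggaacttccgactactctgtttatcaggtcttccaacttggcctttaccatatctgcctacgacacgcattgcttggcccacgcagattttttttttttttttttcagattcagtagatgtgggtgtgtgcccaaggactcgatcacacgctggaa

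The C/EBP string, known as a binding site of the factors that drive granulocyte genes, stood in the stretch that Gm26748 and Prok2 share, 189 bases before the start of Gm26748 and 211 before that of Prok2, and the AP-1 string 67 bases before the start of Prok2. None of the 3 strings had an exact match in the windows of Junos, Jun, Gm16894 or Il1r2. Near matches, such as tgacatca in the Jun window, were not searched. Of all 32851 windows, 40.7% held the C/EBP string, 7.81% the AP-1 string and 1.79% the cyclic AMP response element. In the 96 windows of antisense-class genes the same shares were 45.8%, 8.33% and 1.04%.

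Among the abundant antisense-class genes, lower calls in Cxcr2-/- neutrophils outnumbered higher ones, and most genes were not called. A call needed an edgeR adjusted p under 0.05, over 16778 genes tested, and a change of 1.5-fold or more. All 242 passed the filter on low counts and had counts in every library. Of them, 93 were lower (38.4%; 15.7% of all genes tested were), 13 were higher (5.37%; 15.7% of all genes) and 136 were not called, against a background of 31.3% called in either direction. The median log2 fold change was -0.43, and 0.01 over all genes tested. In 96 genes all 4 Cxcr2-/- values lay under all 4 WT values and in 15 above them, where 19.1% and 22.5% of all genes tested were so, or 41.6% together. The median stayed under that of all genes with each of the other scalings tried, from -0.45 to -0.55 against -0.11 to -0.01.

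The same counts were made by abundance. At 10 CPM or more, 32 of 61 genes were lower and 2 higher (median -0.61), and under 10 CPM 61 of 181 were lower and 11 higher (median -0.32). Because a gene may reach the limit through the group in which it is high, the genes at 3 CPM or more in both groups were also counted alone: 62 of 192 were lower and 7 higher, with a median of -0.35. The 675 antisense-class genes under the limit that could be tested had 96 lower and 46 higher, with a median of -0.19. Lower calls outnumbered higher calls in other noncoding classes too, with 201 against 48 among 573 lincRNAs and 239 against 48 among 979 genes of the provisional class TEC, whereas 12151 protein-coding genes had 1624 lower and 2308 higher. The differences between these classes were not tested.

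The arrangement of the pair was described in the same way. Of the 144 genes inside the partner, 54 were lower and 4 higher (median -0.44). The 49 head-to-head genes had 19 lower and 3 higher (median -0.31), and the 34 tail-to-tail genes 14 lower and 5 higher (median -0.38). Of the 5 genes without a partner, 2 were lower and 0 higher.

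Measures of the libraries moved with this fall. Of all tallied pairs, those outside every gene exon made up 31.4 to 41.5% in WT and 26.7 to 31.9% in Cxcr2-/- libraries, and WT 1, at 31.4%, lay among the Cxcr2-/- values. Of all gene counts, the 242 genes together held 0.350 to 0.487% in each WT and 0.240 to 0.279% in each Cxcr2-/- library. Their summed level was 3516, 4055, 4658 and 4478 normalised CPM in WT and 2659, 2825, 2671 and 2713 in Cxcr2-/-, so the groups did not overlap and WT 1 was the lowest of WT. Without WT 1, 102 genes were lower and 8 higher. With the share of pairs outside genes as a covariate, 38 were lower and 12 higher, 36 of the 93 and 8 of the 13 calls were kept, and the median was -0.17 against 0.08 over all genes, of which 16.9% were then called. Not all of the 63 genes chosen to be named passed without this covariate. Of those that did, 19 no longer passed with it: the antisense-class genes F630028O10Rik, Gm16894, Gm15564, Gm15347, Gm10865, Gm16174, Gm10552 and Gm14703, and the partners Il1r2, Ptpre, Rab10, Alox5ap, Spatc1, C130026I21Rik, Triobp, Slco1a6, Bcl3, Jun and Mapk1ip1l. Apart from WT 1, the share separates the genotypes in these libraries, and the part of each in the fall cannot be told apart.

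**Figure D2:**
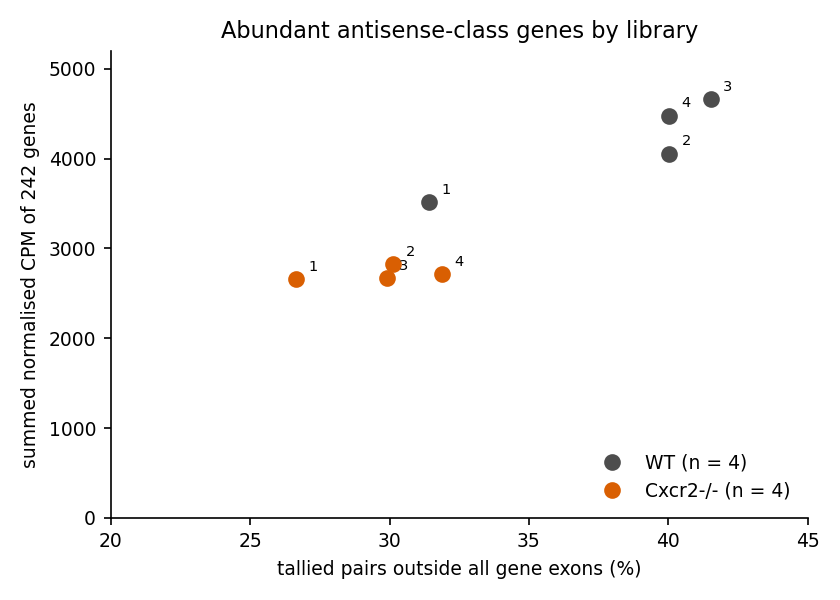
Summed normalised CPM of the 242 genes (vertical axis) against the share of tallied pairs outside all gene exons (horizontal axis, percent), 1 point per library, numbered by replicate. The 4 Cxcr2-/- libraries lie between 2659 and 2825, and WT 1 is the single WT library with a share in their range.

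Marker genes of other cells were counted beside them. The summed level of 12 neutrophil markers was 51315 to 69888 normalised CPM in WT and 112039 to 147506 in Cxcr2-/- libraries, and none of the 12 was at 0. Of the 12, 9 were higher, 2 lower and 1 not called. The 2 lower ones were Cxcr2 itself and Csf3r, which fell by 1.06 (adjusted p = 1.11e-05, edgeR). The sums of 8 B cell markers (73.0 to 162 in WT, 39.6 to 83.3 in Cxcr2-/-) and 8 monocyte and macrophage markers (451 to 550 in WT, 210 to 311 in Cxcr2-/-) went with 6 lower calls among the B cell markers, and 2 lower and 1 higher among the others. Most of the monocyte and macrophage sum was Csf1r, at 403 to 499 in WT and 190 to 269 in Cxcr2-/- libraries. The other lower call was Adgre1, and the higher one was Mertk. The 5 early granulocyte markers, summing to 4.37 to 17.3 in WT and 70.5 to 386 in Cxcr2-/- libraries, were all higher. Of 3 eosinophil and basophil markers tested, Prg2 and Epx rose by 2.87 and 2.78, at 16.3 normalised CPM or less in every library. The third and most abundant, Siglecf, went the other way, at 37.7 to 55.4 in WT and 28.7 to 35.2 in Cxcr2-/- libraries. Its log2 fold change of -0.57 (adjusted p = 0.00321, edgeR) stayed under 1.5-fold. Of 4 NK cell markers Nkg7 rose by 2.48. Of 3 T cell and 3 dendritic cell markers tested, 1 each was lower, and of 4 erythroid and 2 platelet markers 0 were called. With a score of non-neutrophil markers as a covariate, 95 of the 242 genes were lower and 9 higher, 83 and 9 of them shared with the calls above. In sorted bulk cells, fewer cells that carry an RNA and less of it per cell cannot be told apart.

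The 10 most abundant genes are given in order. Gm16894 (chr1:40076228-40085851, minus strand), inside Il1r2, the decoy receptor that binds interleukin-1 without signalling, was at 288, 371, 723 and 515 normalised CPM in WT and at 158, 124, 208 and 189 in Cxcr2-/- libraries. It fell by 1.48 on the log2 scale (SE 0.25, adjusted p = 0.000386, edgeR), with no overlap between the groups, although the WT values ran from 288 to 723. Il1r2 fell by 1.25 (SE 0.29, adjusted p = 0.00356, edgeR), with 343, 505, 932 and 631 normalised CPM in WT and 196, 166, 348 and 305 in Cxcr2-/- libraries, where Cxcr2-/- 3 just passed WT 1. WT 3 was the highest library for both. Per kilobase free of opposite exons Gm16894 (382 normalised CPM) was above Il1r2 (224). Neither passed the test with the share of pairs outside genes as a covariate (adjusted p = 0.204 and 0.754).

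Tug1 (chr11:3639785-3649673, minus strand), a conserved long noncoding RNA that stands head to head with Morc2a, an ATPase of chromatin silencing, was at 195, 202, 178 and 202 normalised CPM in WT and at 117, 143, 120 and 135 in Cxcr2-/- libraries, without overlap (log2 fold change -0.59, SE 0.10, adjusted p = 0.00029, edgeR). Morc2a was at 11.8 to 14.1 in WT and 11.3 to 12.1 in Cxcr2-/- libraries (log2 fold change -0.11, adjusted p = 0.422, edgeR). Tug1 held more reads than its partner in each library, and per kilobase it stood at 17.5 normalised CPM against 2.03.

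1700071M16Rik (chr17:43588340-43592442, minus strand) lies inside Pla2g7, the secreted lipase that breaks down platelet-activating factor. It was at 129, 146, 155 and 154 normalised CPM in WT and at 48.4, 51.4, 56.9 and 61.4 in Cxcr2-/- libraries and fell by 1.42 (SE 0.10, adjusted p = 5.77e-07, edgeR). Each group was tight and far from the other, and Pla2g7 fell by 1.07 (SE 0.13, adjusted p = 4.01e-05, edgeR). Gm35853 (chr15:101322888-101405834, plus strand), which spans the keratin gene Krt80, was at 71.6 to 86.8 in WT and 37.3 to 43.6 in Cxcr2-/- libraries and fell by 0.98, close to the fall of Krt80 by 1.15. Mirt2 (chr15:76266461-76269839, minus strand), a long noncoding RNA known from lipopolysaccharide-treated macrophages, was at 66.7 to 77.2 in WT and 43.4 to 47.8 in Cxcr2-/- libraries and fell by 0.67 (adjusted p = 3.82e-05, edgeR). Its head-to-head neighbour Spatc1, a sperm gene, lay at 6.30 to 10.9 over both groups and fell too (adjusted p = 0.00894, edgeR). Mirt2 had 735% of the counts of Spatc1 in WT and 647% in Cxcr2-/- libraries on average, and this ratio passed in 0 of 14 alternatives.

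Rab10os (chr12:3235504-3250377, plus strand) meets Rab10, a small GTPase of vesicle transport, at the 3′ ends. It was at 80.9, 86.2, 93.2 and 93.7 normalised CPM in WT and at 32.4, 27.4, 43.4 and 34.9 in Cxcr2-/- libraries, a fall by 1.36 (SE 0.13, adjusted p = 4.17e-06, edgeR). Rab10 went the other way without reaching 1.5-fold, at 56.4, 52.2, 52.6 and 51.7 in WT and 65.1, 68.3, 69.7 and 67.7 in Cxcr2-/- libraries (log2 fold change 0.35, SE 0.08, adjusted p = 0.00284, edgeR). In neither gene did the groups overlap.

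The other 3 of the 10 were not called. 5830432E09Rik (chr7:135635931-135652314, minus strand), inside the tyrosine phosphatase gene Ptpre, was at 73.9 to 97.0 normalised CPM in WT and 61.6 to 81.4 in Cxcr2-/- libraries (log2 fold change -0.28, adjusted p = 0.0766, edgeR). Gm19719 (chr5:149282752-149287868, minus strand) lies inside Alox5ap, which presents arachidonic acid for leukotriene synthesis. It was at 57.6 to 61.7 in WT and 56.5 to 73.0 in Cxcr2-/- libraries (log2 fold change 0.14, adjusted p = 0.256, edgeR), whereas Alox5ap rose by 0.71 (adjusted p = 0.000875). B430010I23Rik (chr8:41017468-41024216, plus strand) and Mtus1, a gene of a microtubule-binding protein, were not called (log2 fold changes -0.06 and -0.05).

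**Figure D3:**
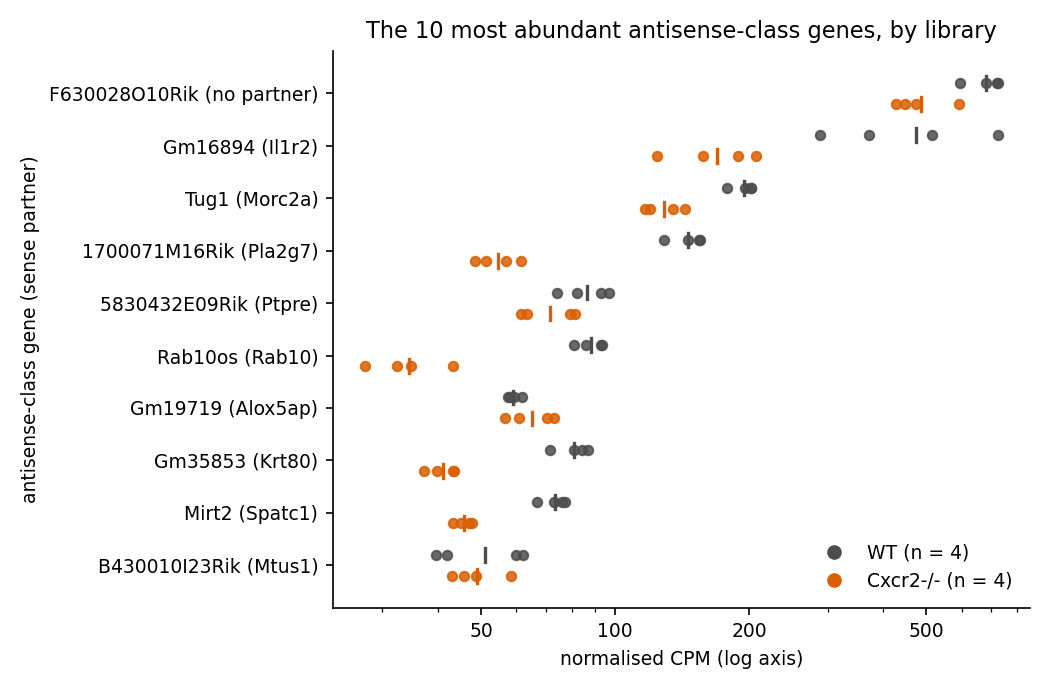
Normalised CPM (horizontal axis, log scale) of the 10 genes with the highest mean, with the sense partner in brackets. Each point is 1 library (WT grey, above; Cxcr2-/- orange, below, n = 4 each) and each bar the mean of its group; the groups of 5830432E09Rik, Gm19719 and B430010I23Rik overlap and the other 7 do not.

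Of the 13 genes that were higher in Cxcr2-/- libraries, 10 had a partner that was higher too. Of these 13, 6 were under 3 CPM on average in WT and reached the limit through the Cxcr2-/- libraries alone, so that a higher value there was part of their choice. Gm26748 (chr6:99725771-99732553, plus strand), the gene with the largest log2 fold change, is 1 of these 6 and stands head to head with Prok2, a secreted prokineticin made by myeloid cells. Gm26748 was at 0.685, 1.04, 0.615 and 0.578 normalised CPM in WT and at 10.0, 10.9, 7.29 and 7.66 in Cxcr2-/- libraries, a log2 fold change of 3.59 (SE 0.24, adjusted p = 3.2e-07, edgeR) or 12.1-fold. Prok2 was at 19.4, 11.3, 12.2 and 13.6 in WT and at 179, 174, 211 and 176 in Cxcr2-/- libraries (log2 fold change 3.71, SE 0.16, adjusted p = 3.49e-08, edgeR). The ratio of both genes did not pass its test (adjusted p = 0.819, limma), and the counts of Gm26748 were 5.52 ± 2.58% of those of Prok2 in WT and 4.92 ± 1.25% in Cxcr2-/- libraries (SD, n = 4).

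Gm15845 (chr16:36367070-36387406, plus strand) stands head to head with BC100530, a stefin of the cysteine protease inhibitors that neutrophil precursors express. It was at 1.48, 2.49, 2.59 and 1.27 normalised CPM in WT and at 3.34, 5.84, 9.07 and 8.68 in Cxcr2-/- libraries (log2 fold change 1.78, SE 0.32, adjusted p = 0.00075, edgeR), and BC100530 rose by 2.67. The stefin genes of this cluster are near copies of each other, so these counts are uncertain. Gm15347 (chr8:12860358-12877344, minus strand) rose by 0.95 at the 3′ end of the phospholipid flippase gene Atp11a, which rose by 1.04, and Gm13571 (chr2:60338188-60371234, plus strand) by 0.86 inside Ly75, the endocytic receptor DEC-205, which rose by 1.28. Gm15347 did not pass with the share of pairs outside genes as a covariate (adjusted p = 0.118, edgeR), nor did Gm13571 with the non-neutrophil score as a covariate or without Cxcr2-/- 2 (adjusted p = 0.0658 and 0.0509, edgeR). Brip1os (chr11:86201370-86304443, plus strand) rose by 0.74 around Ints2, an Integrator subunit, which rose by 0.76.

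A530040E14Rik (chr1:85105946-85114035, plus strand) rose by 0.90 (adjusted p = 0.00357, edgeR), passed in 17 of 17 alternative settings, was at 12.8 normalised CPM in WT 3 beside 6.30 to 7.21 in the other WT libraries, and lies in a stretch of related Sp100-family genes that may share reads. Its partner C130026I21Rik (log2 fold change 0.79, adjusted p = 0.0271, edgeR) was at 49.5 in Cxcr2-/- 1 and 19.4 to 26.0 in the other 3, and without that library its log2 fold change was 0.40 (adjusted p = 0.0653). Gm10865 (chr15:78994955-79011041, minus strand), at the 3′ end of the actin-binding gene Triobp, was at 2.32 to 3.44 normalised CPM in WT and at 6.90, 5.84, 2.97 and 3.50 in Cxcr2-/- libraries (log2 fold change 0.74, adjusted p = 0.0361, edgeR). Its groups overlap, and it passed in 7 of 17 alternative settings.

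Of the 93 genes that were lower, 40 had a partner that was lower, 47 a partner that was not called and 2 a partner that was higher. The other 4 had no partner or one that was not tested. Of the 93, 31 were under 3 CPM on average in Cxcr2-/- and reached the limit through the WT libraries alone. A lower value in Cxcr2-/- was thus part of their choice. The largest fall was that of 1 of these 31, Gm14455 (chr2:172425804-172440560, minus strand), which meets Cass4, a scaffold protein of the Cas family, at the 3′ ends. Gm14455 was at 7.83, 8.28, 14.2 and 11.2 normalised CPM in WT and at 0.683, 0.332, 2.47 and 2.33 in Cxcr2-/- libraries (log2 fold change -2.82, SE 0.46, adjusted p = 0.00034, edgeR). Cass4 fell by 2.45 (SE 0.15, adjusted p = 1.83e-07, edgeR), from 150 to 177 in WT to 22.6 to 37.2 in Cxcr2-/- libraries. Both genes were lowest in Cxcr2-/- 1 and 2.

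Il1bos (ENSMUSG00000074805, chr2:129369897-129375748, plus strand) runs head to head across the start of Il1b, the main secreted interleukin-1 of neutrophils. It was at 35.1, 34.97, 32.2 and 39.7 normalised CPM in WT and at 10.1, 7.86, 13.4 and 14.8 in Cxcr2-/- libraries, and fell by 1.62 (SE 0.17, adjusted p = 1.05e-05, edgeR). Il1b, at 5043, 3185, 4707 and 4561 in WT and 1318, 1083, 2029 and 1999 in Cxcr2-/- libraries, fell by 1.44 (SE 0.21, adjusted p = 0.000146, edgeR). Cxcr2-/- 3 and 4 were the higher knockout libraries for both genes. The counts of Il1bos were 0.836 ± 0.194% of those of Il1b in WT and 0.723 ± 0.045% in Cxcr2-/- libraries (SD, n = 4), and the ratio did not pass its test (adjusted p = 0.531, limma).

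The other large falls with a lower partner were spread over receptor, transport and metabolic genes. 2010310C07Rik (chr6:42370671-42381215, plus strand) fell by 2.06 beside the ephrin receptor gene Epha1, which fell by 1.22. Gm20400 (chr6:142161493-142173796, plus strand) fell by 1.88 inside Slco1a6, an organic anion transporter gene that was itself at only 0.764 to 1.74 normalised CPM in WT, and so held far fewer reads than the gene within it. Gm17552 (chr19:4169566-4174284, plus strand) fell by 1.84 inside the carnosine synthase gene Carns1, which fell by 2.06, and 53.2% of its exonic bases lie under opposite exons. Gm40578 (chr12:111450405-111500840, minus strand) fell by 1.81 at the 3′ end of Tnfaip2, a TNF-induced gene, which fell by 1.24.

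In the remaining 2 of the 8 largest falls the partner was not called. Gm28809 (chr6:125481363-125484678, plus strand) lies in Cd9, a tetraspanin of the cell surface, and shares no exonic base with it. Gm28809 was at 44.9, 55.3, 52.1 and 61.8 normalised CPM in WT and at 18.3, 14.8, 18.9 and 16.1 in Cxcr2-/- libraries (log2 fold change -1.65, SE 0.12, adjusted p = 5.77e-07, edgeR). Cd9 was at 226 to 263 in WT and 217 to 252 in Cxcr2-/- libraries (log2 fold change -0.03, SE 0.10, adjusted p = 0.817, edgeR). The groups stood far apart for the inner gene and lay over each other for Cd9.

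D930030I03Rik (chr16:38451982-38453494, plus strand) starts near the start of Adprh, the hydrolase that takes ADP-ribose off arginine. It was at 21.1, 25.7, 27.4 and 24.8 normalised CPM in WT and at 4.55, 4.48, 6.20 and 6.85 in Cxcr2-/- libraries (log2 fold change -2.16, SE 0.16, adjusted p = 6.28e-07, edgeR). Adprh was at 105 to 128 in WT and 101 to 116 in Cxcr2-/- libraries (log2 fold change -0.09, SE 0.09, adjusted p = 0.481, edgeR).

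Over the 230 pairs in which both genes were tested, the change of the antisense-class gene followed that of its partner. Pearson's r of the log2 fold changes was 0.73 and Spearman's rho 0.66 across pairs, which share the 8 libraries and, by the way they were counted, may share reads. In 173 pairs the signs were the same. The rho was 0.71 for 141 genes inside the partner, 0.54 for 47 head to head, 0.73 for 34 tail to tail and 0.38 for 8 that span the partner. The 215 partners tested had 25 higher and 43 lower calls. In either direction 31.6% of the partners were called, close to the 31.3% of all genes tested. Of all genes tested, 15.7% were called in each direction. The share of partners called higher, 11.6%, lay under this value and the share called lower lay over it. The median over the pairs was -0.14 for the partner and -0.43 for the antisense-class gene. The antisense-class gene lay under its partner in 166 of 230.

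**Figure D4:**
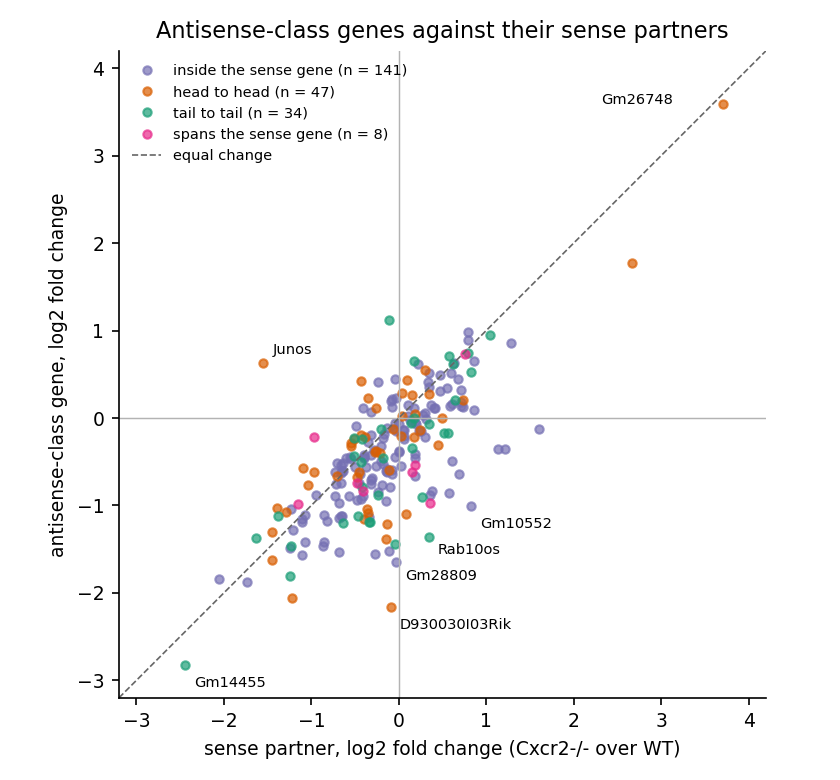
Log2 fold change, Cxcr2-/- over WT, of each antisense-class gene (vertical axis) against that of its sense partner (horizontal axis), 1 point for each of 230 pairs, coloured by arrangement. Most points lie under the dashed line of equal change, with Gm26748 at the upper right, Gm14455 at the lower left and Junos as the point highest above the line.

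Whether a pair changed unequally was tested on the ratio of its counts in each library (log2 of both counts plus 0.5, limma), in which library size cancels. Over all 839 antisense-class pairs tested, 8.22% passed at an adjusted p under 0.05, 6.79% with a lower and 1.43% with a higher ratio. Among the 230 pairs of abundant genes, 35 had a lower and 4 a higher ratio in Cxcr2-/- libraries. Without WT 4 these were 23 and 2, and without WT 1, 48 and 3. With the share of pairs outside genes as a covariate 8 and 2 passed.

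The single pair in which a higher antisense-class gene had a lower partner was Junos with Jun, the AP-1 subunit induced within minutes by stress and cytokines. Junos (ENSMUSG00000087366, chr4:95051534-95167318, plus strand) starts inside Jun (chr4:95049034-95052222, minus strand) in M21. It runs across the start of Jun and then away from it, over 23 exon blocks. Junos was at 5.04, 7.27, 6.79 and 7.17 normalised CPM in WT and at 9.33, 9.79, 10.1 and 11.4 in Cxcr2-/- libraries, a log2 fold change of 0.63 (SE 0.15, adjusted p = 0.00408, edgeR). Jun was at 187, 336, 136 and 279 in WT and at 48.9, 49.5, 112 and 108 in Cxcr2-/- libraries, a log2 fold change of -1.56 (SE 0.32, adjusted p = 0.00165, edgeR).

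The groups did not overlap for either gene, but Jun varied widely within both groups, from 136 to 336 normalised CPM in WT. The counts of Junos were 2.70, 2.17, 4.98 and 2.57% of those of Jun in WT and 19.1, 19.8, 8.96 and 10.6% in Cxcr2-/- libraries. The log2 ratio rose by 2.22 (SE 0.29, adjusted p = 6.51e-05, limma) and passed in 14 of 14 alternatives. Jun alone did not pass with the share of pairs outside genes as a covariate (log2 fold change -1.05, adjusted p = 0.16, edgeR), whereas Junos did (1.07, adjusted p = 0.00538, edgeR). Only 5.64% of the exonic bases of Junos lie under opposite exons, and it overlaps exons of another gene on its own strand.

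In 2 pairs a lower antisense-class gene lay inside a higher partner. Gm10552 (chr1:85604085-85611896, minus strand), in Sp140, a nuclear body protein of leukocytes, was at 8.60, 10.6, 15.2 and 9.89 normalised CPM in WT and at 4.63, 3.93, 6.71 and 6.68 in Cxcr2-/- libraries (log2 fold change -1.01, SE 0.22, adjusted p = 0.0022, edgeR). Sp140 was at 68.9 to 82.5 in WT and at 117 to 145 in Cxcr2-/- libraries (log2 fold change 0.82, SE 0.10, adjusted p = 2.58e-05, edgeR). A further gene inside Sp140, Gm17017, named here after its value was seen, stood at 0.52 on the log2 scale (adjusted p = 0.027, edgeR), so the 2 genes within this partner differed in sign. Sp140 (chr1:85600378-85645037) and C130026I21Rik (chr1:84992690-85270566), with the genes inside them, lie on the same chromosome as Cxcr2 (chr1:74153989-74161246). Whether DNA of the strain before the backcross remained around Cxcr2 was not tested.

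Gm16174 (chr7:19816553-19818625, plus strand) lies in Bcl3, an atypical IkB protein that binds NF-kB p50 and p52 in the nucleus. It was at 14.4, 16.2, 16.7 and 17.3 normalised CPM in WT and at 12.9, 9.71, 9.81 and 9.09 in Cxcr2-/- libraries (log2 fold change -0.64, SE 0.13, adjusted p = 0.00175, edgeR), and Bcl3 rose by 0.69 (SE 0.16, adjusted p = 0.00363, edgeR), from 65.2 to 86.6 in WT to 88.0 to 157 in Cxcr2-/- libraries. The ratio fell by 1.84 for Gm10552 and by 1.31 for Gm16174 (adjusted p = 6.51e-05 for each, limma). Neither Gm10552 nor Gm16174 passed the edgeR test with the share of pairs outside genes as a covariate (adjusted p = 0.335 and 0.0797), and Bcl3 was no longer higher there (log2 fold change 0.49, adjusted p = 0.296, edgeR). With that covariate the ratio of Gm16174 passed and that of Gm10552 did not (adjusted p = 0.0269 and 0.0533, limma).

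**Figure D5:**
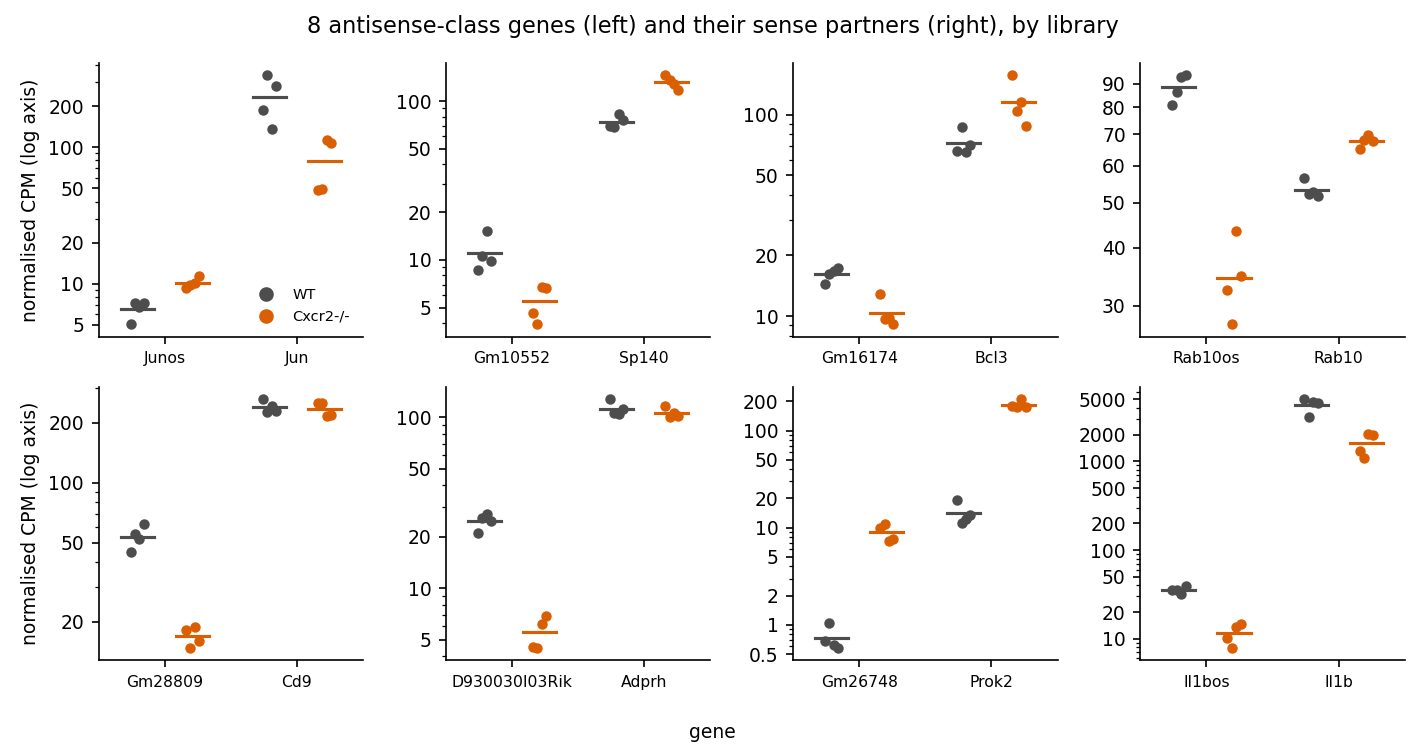
Normalised CPM (vertical axes, log scale, a separate scale in each panel) of 8 antisense-class genes, at the left of each panel, and their sense partners, at the right. Points are libraries (WT grey, Cxcr2-/- orange, n = 4 each) and bars group means; Junos lies higher and Jun lower in Cxcr2-/- libraries, whereas Gm26748 and Prok2 are both higher and Il1bos and Il1b both lower.

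In the 7 pairs whose ratio fell most, the partner was higher in 4 and not called in 3; the 3 that were not called are given here. That of D930030I03Rik to Adprh fell by 2.10 (SE 0.21, adjusted p = 4.42e-06, limma), from 22.3 ± 4.19% to 5.25 ± 1.31% of the partner's counts. That of Rab10os to Rab10 fell by 1.72 (SE 0.15, adjusted p = 3.11e-06, limma), from 167 ± 17.01% to 50.9 ± 9.07%, so that the antisense-class gene outnumbered Rab10 in all 4 WT libraries and in none of the Cxcr2-/- libraries. That of Gm28809 to Cd9 fell by 1.62 (SE 0.17, adjusted p = 9.27e-06, limma), from 22.5 ± 4.29% to 7.29 ± 1.15% (SD, n = 4 throughout). These 3 ratios passed also with the share of pairs outside genes as a covariate (adjusted p = 0.00724, 0.0033 and 0.015, limma).

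Of the 4 higher ratios, that of Gm15564 (chr16:35966752-35983230, minus strand) to Parp9, an interferon-induced ADP-ribosylation gene, followed that of Junos in size. Gm15564 was at 2.50, 2.09, 2.59 and 0.983 normalised CPM in WT and at 4.93, 3.79, 4.57 and 4.47 in Cxcr2-/- libraries (log2 fold change 1.12, SE 0.26, adjusted p = 0.00398, edgeR). Parp9 was at 48.5 to 51.9 in WT and at 39.4 to 55.8 in Cxcr2-/- libraries (log2 fold change -0.11, adjusted p = 0.414, edgeR), and the log2 ratio rose by 1.33 (SE 0.28, adjusted p = 0.00584, limma). With the share of pairs outside genes as a covariate neither Gm15564 (adjusted p = 0.218, edgeR) nor this ratio (adjusted p = 0.288, limma) passed, and the ratio passed in 12 of 14 alternatives. Gm15564 too was under 3 CPM on average in WT.

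Where 12 partners held more than 1 of the genes, the members of a set were set side by side. The 3 genes inside or beside Arhgap26 ran from -1.20 to -0.51 on the log2 scale, and the 3 of Nedd9, a Cas-family scaffold like Cass4, from -1.16 to -0.45. The 3 of Mtus1 ran from -0.44 to 0.44, which with Sp140 made 2 partners whose genes differed in sign. In the other 10 sets all genes had the same sign, which was also the sign of the partner. These sets were chosen by their shared partner, and their genes may share that partner's reads.

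Some of the 242 are antisense RNAs with known roles, and are named here after their values were seen. Kcnq1ot1 (chr7:143203458-143296549, minus strand), the RNA that silences an imprinted domain, was at 7.76, 15.8, 11.4 and 10.8 normalised CPM in WT and at 9.40, 10.5, 14.5 and 16.3 in Cxcr2-/- libraries (log2 fold change 0.15, adjusted p = 0.607, edgeR), while its partner Kcnq1, a potassium channel gene, was at 0 in all but 1 library. Nron, a repressor of NFAT import into the nucleus, stood at 0.34 on the log2 scale (adjusted p = 0.177, edgeR), and Gt(ROSA)26Sor, the locus used for mouse transgenes, one of -0.07 (adjusted p = 0.826, edgeR).

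At the limit of 3 CPM, the members just inside were 1700052K11Rik (3.02 CPM), Gm49189 and Gm14703 (3.04 CPM each). Those just outside were B130046B21Rik (2.99 CPM), A030001D20Rik (2.99 CPM) and Gm15964 (2.98 CPM). The 3 inside had log2 fold changes of 0.02, -0.14 and -0.90 and the 3 outside -0.29, -2.24 and 0.75.

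Genes of the machinery that handles such RNA were taken from lists. Of 24 tested genes of the nuclear RNA exosome and its adaptors, 7 were higher and 5 lower, with a median of 0.26 on the log2 scale beside 0.01 over all genes tested. Among them the helicase gene Mtrex rose by 0.64 (adjusted p = 0.000551, edgeR) and the cap-binding gene Ncbp1 by 0.99 (adjusted p = 1.56e-06, edgeR). The adaptor genes Zcchc8 and Rbm7 fell by 0.72 and 0.70. Of the core subunits, Exosc7 and Exosc9 rose by 0.87 and 0.93 and Exosc5 fell by 0.83. Of 19 sensors and editors of double-stranded RNA, 7 were higher and 1 lower, with a median of 0.45. Oas2 rose by 1.65 and Zbp1 by 2.01, the editor gene Adar changed by 0.47 and stayed under 1.5-fold, and Oasl1 fell by 1.32. Cxcr2-/- 1 was the highest library for Oas2, Zbp1 and Adar. Oas2 was at 139 normalised CPM there, at 60.4 to 73.4 in the other Cxcr2-/- libraries and at 22.9 to 35.1 in WT. Zbp1 was at 23.8 there, at 5.70 to 6.68 in the other Cxcr2-/- libraries and at 1.82 to 3.40 in WT. Of 12 other long noncoding RNAs, 4 were lower and 0 higher, among them Neat1, Mirt1 and Mir22hg. Their median was -0.51.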

How the data were processed

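RNA from sorted spleen neutrophils of 4 WT and 4 Cxcr2-/- mice was sequenced in 1 library per mouse. According to the paper, the authors depleted ribosomal RNA, prepared libraries with a directional kit, aligned paired reads to mm10 and tallied them per gene with HTSeq; the strand setting of the counting is not given in the sources used here. They deposited raw counts per gene, whole numbers without normalization, with summary lines that were used only to describe libraries. Counts on genes ranged from 34220182 to 46233555 per library.

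Groups and replicate numbers were taken from the labels, and mice with the same number are different animals. Replicates were compared before averaging: pairs of libraries within a group had a chi-square per gene from 23.9 to 99.0, above sampling noise. Gene classes, strands and exons were taken from GENCODE M21 (52133 of 55414 identifiers matched) and sequences from RefSeq tables of GRCm38.p6. The partner was the protein-coding gene of the opposite strand with the most overlapping bases.

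Counts were compared in R 4.3.3 with edgeR 4.0.16 (quasi-likelihood test, TMM, filterByExpr, Benjamini-Hochberg over 16778 genes); a call needed an adjusted p under 0.05 and a change of at least 1.5-fold. Normalised CPM used TMM library sizes, whereas the 3 CPM limit used total counts. Ratios of pairs were tested with limma 3.58.1 (eBayes with trend). The steps were tested on simulated data: with 200 changed genes among 16513, 100% of 4-fold and 86.0% of 2-fold changes were recovered. Alternatives were DESeq2 1.42.0, RLE, upper-quartile and total-count scaling (the last chosen after seeing the data), other filters, limits and pseudocounts, 2 covariates, the replicate block and each library left out. The genes named were the 10 highest, the 8 largest called changes in each direction, pairs called in opposite directions, those next to the limit, and their partners. The members, lists and motifs were chosen with earlier results of these data known.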

Additional observations from a re-analysis of the deposited data

Results flagged for a closer look

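In 128 groups of 4 libraries (64 genes named in the text, WT and Cxcr2-/- each), 6 held 1 library farther from the others than Dixon's 95% limit; chance flags about 1 in 20 groups. Among antisense-class genes, A530040E14Rik was at 12.83 normalised CPM in WT 3 (other WT libraries 6.301 to 7.214). Gm13571 was at 2.388 in WT 1 (others 6.149 to 6.628). Gm20400 was at 71.21 in WT 4 (others 50.08 to 53.61). Among partners, Mtus1 was at 639.6 in WT 2 (others 732.4 to 749.4). Prok2 was at 210.7 in Cxcr2-/- 3 (others 173.7 to 179.5). Mapk1ip1l was at 69.82 in Cxcr2-/- 1 (others 72.13 to 72.31). The 6 values lay in 6 different libraries. No cause was tested.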

How the results depend on the processing

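Members called lower numbered 93, and 38 with the share of pairs outside genes as a covariate, 48 at 2-fold, 32 at a limit of 10 CPM and from 84 to 102 when 1 library was left out. Members called higher numbered 13, and 8 with upper-quartile or total-count scaling, 3 at 2-fold, 31 at a limit of 1 CPM, 2 at 10 CPM and from 8 to 17 with 1 library left out, the 8 without WT 1. Partners called higher numbered 25, and 16 with upper-quartile scaling, 10 with that covariate, 14 when partners were chosen by exonic overlap and from 20 to 29 with 1 library left out; lower calls ran from 42 to 48. Pairs with a lower ratio numbered 35, and 20 without the trend, 8 with the covariate and from 23 (without WT 4) to 48 (without WT 1) with 1 library left out. Pairs with a higher ratio numbered 4, and 2 without the trend, 2 with the covariate and from 2 to 4 with 1 library left out. Upper-quartile scaling moved the median of all genes to -0.11. Replicate numbers did not pair the libraries (correlations of deviations 0.12, -0.19, 0.16 and -0.26 for numbers 1 to 4). With the replicate block, 92 members were lower and 12 higher, 90 and 11 of them shared. DESeq2 kept all 13 higher and 93 lower calls. For 63 named genes under 17 settings, 1017 of 1071 values kept their side of the threshold, 48 lost and 6 gained significance, and none that passed changed sign. The sign changed in 19 values where neither fit passed. The log2 fold change of Cxcr2 ran from -6.94 to -6.75 with 1 library left out. Apart from the settings that use fewer genes or libraries, the cause of these shifts was not tested. With 4 libraries per group, changes of under 1.5-fold were not called, whatever their p.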
